A study of Homo sapiens with 6 samples.

Results

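The genes CD274, PDCD1LG2, CD276, CD47, NT5E, ENTPD1, LGALS9, PVR, NECTIN2 and MICA encode surface ligands, surface enzymes and 1 secreted lectin by which a tumour cell can restrain or engage T cells, natural killer cells and macrophages. They were taken by symbol from a deposited table of 17110 genes, where all 10 were listed once. All 10 passed the filter on low values, PDCD1LG2 only through 1 of the groups below. The table describes CAL-27, an established human line from a squamous carcinoma of the tongue, in 2 groups of 3 RNA-seq libraries each. Parental cells grew attached to the dish, and sphere cells came from the same line in suspension culture, which the submitters used to isolate cancer stem cells. Neither group carries a labelled genetic change or drug. Both groups are 1 cell line, grown without immune cells as far as the labels state, and the labels do not say whether libraries of a group came from separate cultures, so that each p-value reflects only how far these libraries vary, which may be technical.

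By way of background, PD-L1 (from CD274) and PD-L2 (from PDCD1LG2) on a tumour cell bind the receptor PD-1 on T cells and dampen their activation, and squamous carcinomas of the head and neck are treated with antibodies that block this contact. CD47 binds SIRP alpha on macrophages and holds back phagocytosis, while the surface enzymes CD39 (from ENTPD1) and CD73 (from NT5E) act in sequence to turn extracellular ATP into AMP and then into adenosine, which inhibits lymphocytes. PVR and NECTIN2 can engage the inhibitory receptor TIGIT or the activating receptor CD226, and MICA is shown by stressed cells to the activating receptor NKG2D.

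Values were TPM, transcript abundance scaled to the same total in every library. TPM is adjusted for transcript length, so that levels can be set side by side between genes, but it keeps no sequencing depth, and the depth behind each value is unknown. Sphere and parental libraries were compared with limma on log2(TPM + 1), with p-values adjusted by the Benjamini-Hochberg method over 12261 tested genes and a threshold of 0.05. A log2 difference below is sphere minus parental on that scale, which understates the change of genes at a low TPM. Of the 12261 genes, 10221 (83.4%) passed, 35.1% as higher and 48.2% as lower in sphere libraries, and 84.6% had groups without overlap. Of the 10 immune ligand genes 9 passed, 3 higher and 6 lower, and the groups did not overlap for the same number, which is near the share in all tested genes. At least 2-fold differences that passed were found for 5 of the 10, against 27.2% of all tested genes, of which 46.0% were higher, or 57.5% with median-of-ratios scaling. That scaling raised the median log2 difference of all tested genes from -0.13 to 0.03, a shift of 0.16, and the 10 genes had a median of -0.45, or -0.29 with it.

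The cell types behind the values were checked with marker lists. All 10 squamous epithelial markers were tested and 9 were higher in sphere libraries, with a summed level of 1566 to 1627 TPM in parental libraries and 32358 to 32568 TPM in sphere libraries. The rise was uneven, largest for the keratin gene KRT14, from 4.69 ± 0.207 to 7705 ± 79.5 TPM, while EPCAM fell from 311 ± 9.04 to 160 ± 12.8 TPM. Of 14 leukocyte markers 11 were listed, and their sum was 52.9 to 57.1 TPM in parental libraries and 181 to 187 TPM in sphere libraries, most of it CD68, a lysosomal protein, at 48.1 ± 2.56 and 176 ± 3.05 TPM. The monocyte and macrophage markers CSF1R, CD14 and ITGAM were low but above 0 in every library, with CSF1R at 4.66 ± 0.996 and 4.13 ± 0.12 TPM, CD14 at 1.29 ± 0.199 and 1.22 ± 0.238 TPM and ITGAM at 1.09 ± 0.178 and 0.64 ± 0.139 TPM. PTPRC, the leukocyte marker CD45, was at 0 in all parental libraries and averaged 0.0667 TPM in the sphere ones, and CD3D and CD3E were also at 0 in each parental library. The 7 listed fibroblast markers summed to 11.97 to 12.41 TPM in parental libraries and 15.7 to 17.3 TPM in sphere libraries, and the 5 listed endothelial markers to 20.5 to 21.6 TPM and 10.6 to 12.3 TPM. Tested members of both lists moved in opposite directions. COL1A1 rose from 8.15 ± 0.0635 to 16.1 ± 0.892 TPM, while PDGFRB fell from 2.63 ± 0.173 to 0.0867 ± 0.0451 TPM. CDH5 fell from 10.99 ± 0.29 to 0.01 ± 0.0173 TPM, and EGFL7 rose from 9.7 ± 0.656 to 11.5 ± 0.977 TPM. The part of these leukocyte and squamous markers in the differences below was not tested. In such bulk libraries, fewer cells that express a gene and less of its RNA per cell cannot be told apart.

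RefSeq promoters (GRCh38.p14, 250 bases before to 50 after the start of the gene) were at hand for 9 of the genes, all but PDCD1LG2. Shown are those of the gene with the largest rise (NT5E), the gene with the largest fall (LGALS9) and the gene for PD-L1 (CD274). Capitals mark matches to motifs searched on both strands, GAAA repeated after any 2 bases for IRF factors of the interferon response, TTCNNNGAA for STAT factors, TGANTCA for AP-1, GGAATG for TEAD and the NF-kB consensus.
NT5E, chr6:85449833-85450132, plus strand: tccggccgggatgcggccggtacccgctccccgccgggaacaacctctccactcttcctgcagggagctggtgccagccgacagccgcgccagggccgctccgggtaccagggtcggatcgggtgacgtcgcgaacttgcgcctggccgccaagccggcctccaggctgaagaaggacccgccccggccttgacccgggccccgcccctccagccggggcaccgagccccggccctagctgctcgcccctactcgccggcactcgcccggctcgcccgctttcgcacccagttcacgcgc
LGALS9, chr17:27630938-27631237, plus strand: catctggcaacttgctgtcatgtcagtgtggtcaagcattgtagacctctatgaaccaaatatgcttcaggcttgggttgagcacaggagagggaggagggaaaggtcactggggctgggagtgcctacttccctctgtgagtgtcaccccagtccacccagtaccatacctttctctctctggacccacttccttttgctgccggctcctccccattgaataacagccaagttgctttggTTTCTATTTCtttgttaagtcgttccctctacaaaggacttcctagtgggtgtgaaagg
CD274, chr9:5450292-5450591, plus strand: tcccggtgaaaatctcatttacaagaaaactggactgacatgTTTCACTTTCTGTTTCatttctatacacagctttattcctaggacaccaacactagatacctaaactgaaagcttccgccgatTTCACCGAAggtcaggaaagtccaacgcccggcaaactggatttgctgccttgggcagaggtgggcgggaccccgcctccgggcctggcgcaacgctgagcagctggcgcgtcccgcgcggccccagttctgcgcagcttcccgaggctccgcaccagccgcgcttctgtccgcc
The CD274 window held 2 overlapping IRF matches, from -208 to -199 and from -202 to -193 relative to the start, and a STAT match from -125 to -117. The LGALS9 window held 1 IRF match, from -9 to 1 across the start, and the NT5E window held no match to any of the 5 motifs. Among 35116 promoters of the same length, 3.57% held the IRF motif and 7.66% the STAT motif, and the IRF motif was in 2 of the 9 promoters here. Of the other promoters at hand, that of PVR held a TEAD match, a motif found in 14.0% of promoters. GC content was 75.0% for NT5E, 57.3% for CD274 and 50.7% for LGALS9, against a median of 58.7% over all promoters. A match is a string of letters, and binding was not measured.

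The levels of the 10 genes spanned a wide range, and NT5E led in both groups. In parental libraries the order was NT5E, NECTIN2, MICA, CD276, CD47, PVR, LGALS9, CD274, ENTPD1 and PDCD1LG2, where neighbours from NECTIN2 through CD47 overlapped in their ranges and the others did not. In sphere libraries it was NT5E, CD47, MICA, NECTIN2, CD276, PVR, PDCD1LG2, CD274, ENTPD1 and LGALS9, where only PDCD1LG2 and CD274 overlapped. Thus CD47 moved up to the place after NT5E, PDCD1LG2 left the last place, and LGALS9 came to it.

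**Figure D1:**
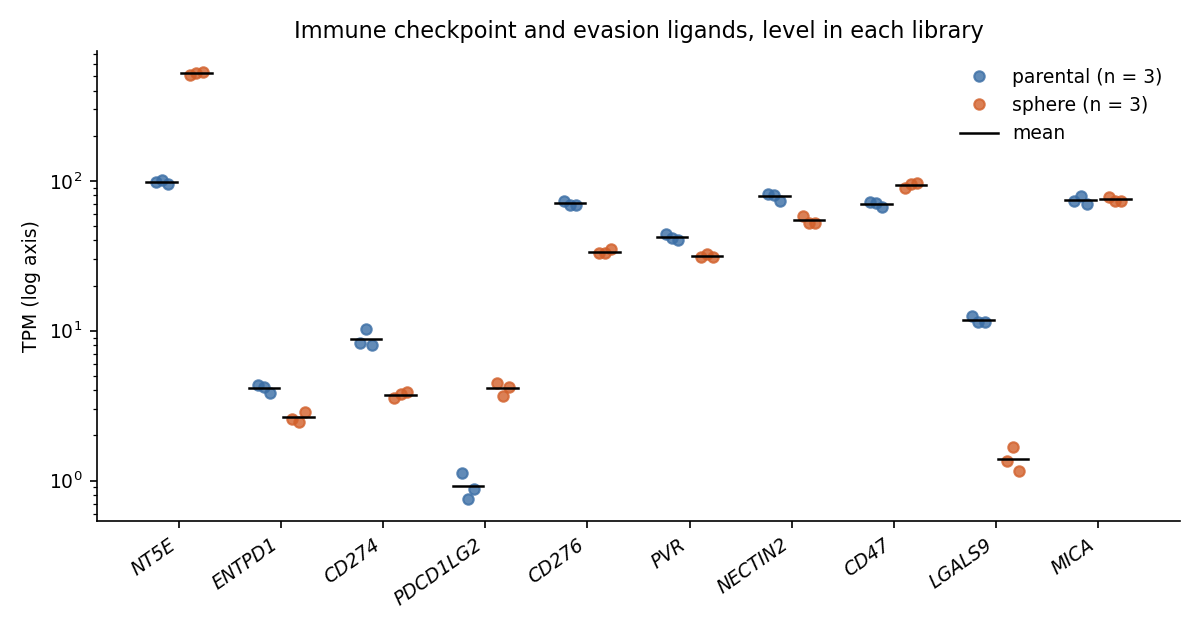
TPM on a log axis for each of the 10 genes in the 3 parental (blue) and 3 sphere (orange) libraries, 1 point per library, with a line at each group mean. The groups are apart for every gene except MICA, with NT5E at 95.1 to 101.5 TPM in parental libraries and 508.58 to 531.6 TPM in sphere libraries.

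Of the adenosine pair, the second enzyme rose strongly while the first fell from a low level. NT5E (Entrez Gene 4907), which encodes CD73 and makes adenosine from AMP, was at 98.83, 101.5 and 95.1 TPM in parental replicates 1 to 3 and at 508.58, 527.69 and 531.6 TPM in sphere replicates 1 to 3. Every sphere library stood far above every parental one. The means were 98.5 ± 3.21 and 523 ± 12.3 TPM (SD, n = 3 each), a 5.31-fold rise, with a log2 difference of 2.40 (SE 0.0382, adjusted p = 2.29e-11). In sphere libraries NT5E was above 98.0% of tested genes. ENTPD1 (Entrez Gene 953), which encodes CD39, was at 4.33, 4.24 and 3.81 TPM in parental and 2.58, 2.47 and 2.85 TPM in sphere libraries. The groups were apart, and the level was low in both. Its TPM fell by 36.2% (log2 difference -0.50, SE 0.0897, adjusted p = 0.000521). ENTPD1 overlaps an antisense gene, ENTPD1-AS1, whose transcripts and those of others hold the reverse complement of 6.54% of the 50-base windows in ENTPD1 coding transcripts, and whether counting used strand was not given in the sources used here.

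Set against each other in the same library, NT5E exceeded ENTPD1 by 22.8, 23.9 and 25.0 times in parental and by 197, 214 and 187 times in sphere libraries. NT5E thereby came to 21.0 to 21.6% of the summed TPM of the 10 genes in parental and to 62.7 to 64.0% in sphere libraries. The sum of all 10 was 460 ± 17.9 TPM in parental libraries and 822.9 ± 11.03 TPM in sphere libraries, while the sum of the other 9 was 362 ± 15.1 and 300.2 ± 2.5 TPM. Without NT5E, the sum was thus lower in sphere libraries, which was not tested with median-of-ratios scaling.

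The rest of the extracellular nucleotide list showed a shift among enzymes and lower adenosine receptors. Of 19 genes in the list 14 were tested, 8 higher and 6 lower, with a median 0.52 above that of all tested genes. ENTPD3, another ectonucleotidase that breaks down ATP, had the largest rise on the log2(TPM + 1) scale, from 2.25 ± 0.0458 to 20.3 ± 0.464 TPM (log2 difference 2.71, adjusted p = 2.95e-10). The nucleotide receptor gene P2RY11, listed at 0 in each parental library and at 1.42, 1.99 and 4.58 TPM in sphere libraries, came ahead of it with a pseudocount of 0.1. ENTPD2 rose from 5.41 ± 0.69 to 13.05 ± 0.343 TPM and ENTPD8 from 1.18 ± 0.425 to 3.51 ± 0.284 TPM, so that all 3 other ectonucleoside triphosphate diphosphohydrolases of the list went against ENTPD1. The adenosine receptor gene ADORA2A had the largest fall on the log2(TPM + 1) scale, from 4.50 ± 1.78 to 0.993 ± 0.276 TPM (log2 difference -1.43, adjusted p = 9.08e-05), and ADORA2B fell from 51.0 ± 2.85 to 34.3 ± 2.2 TPM. As a ratio of mean TPM, ENPP1, an enzyme that splits extracellular ATP, fell more, by 7.51-fold against 4.53-fold for ADORA2A. ENPP1 was low, going from 1.85 ± 0.245 to 0.247 ± 0.0586 TPM. The most abundant gene of the list, the adenosine kinase ADK, rose from 82.1 ± 4.07 to 149.6 ± 4.94 TPM, and the nucleoside transporter SLC29A1 fell from 64.9 ± 2.36 to 29.7 ± 1.28 TPM.

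The PD-1 ligands moved in opposite directions. CD274 (Entrez Gene 29126) was at 8.25, 10.19 and 8.08 TPM in parental and at 3.54, 3.79 and 3.87 TPM in sphere libraries. PDCD1LG2 (Entrez Gene 80380) was at 1.12, 0.75 and 0.88 TPM in parental and at 4.47, 3.68 and 4.23 TPM in sphere libraries. Neither gene overlapped between the groups, but both were low, below 11 TPM in every library. CD274 went from 8.84 ± 1.17 to 3.73 ± 0.172 TPM, and so fell by 57.8% (log2 difference -1.05, SE 0.0953, adjusted p = 3.32e-06). PDCD1LG2 rose from 0.917 ± 0.188 to 4.13 ± 0.405 TPM, or 4.50-fold (log2 difference 1.42, SE 0.112, adjusted p = 1.13e-06). Its parental mean was below 1 TPM, so it passed the filter only through its sphere values. The fold and the ratios to CD274 below rest on parental values near the floor. None of the 50-base windows of their coding transcripts occurs in another gene.

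Within a library, PDCD1LG2 was at 0.136, 0.0736 and 0.109 of the CD274 level in parental cells and at 1.26, 0.971 and 1.09 of it in sphere cells. Transcripts of the PD-1 ligands were thus mostly CD274 in parental libraries and about evenly divided in sphere libraries. Their sum moved far less, from 9.76 ± 1.05 to 7.86 ± 0.341 TPM.

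**Figure D2:**
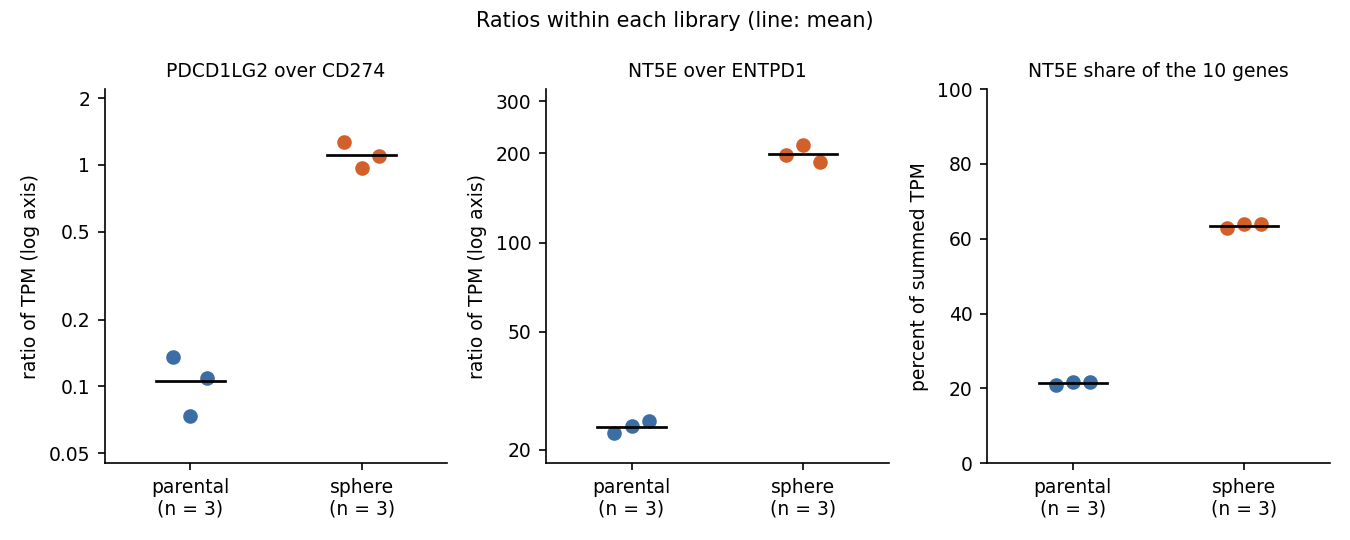
For each library (1 point each, line at the group mean), the ratio of PDCD1LG2 to CD274 TPM and of NT5E to ENTPD1 TPM on log axes, and the percent of the summed TPM of the 10 genes that is NT5E. All 3 measures are higher in the 3 sphere libraries, with the first ratio at 0.0736 to 0.136 in parental and 0.971 to 1.26 in sphere libraries.

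CD274 and PDCD1LG2 are next to each other on chromosome 9 among the tested genes, and the genes around them did not move together. PLGRKT, which encodes a plasminogen receptor and precedes CD274, was at 28.98 ± 2.82 TPM in parental libraries and 23.6 ± 1.01 TPM in sphere libraries (log2 difference -0.28, adjusted p = 0.00426, but 0.161 with median-of-ratios scaling). RLN2, a relaxin gene before it, fell from 2.60 ± 0.737 to 0.0933 ± 0.0808 TPM. RIC1 follows PDCD1LG2 and was at 13.9 ± 1.48 and 15.9 ± 0.42 TPM with overlapping groups (adjusted p = 0.0381, lost in 7 of 12 alternatives, where it was at most 0.121), and ERMP1 after it fell from 32.7 ± 1.21 to 18.9 ± 0.496 TPM.

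Genes that act on PD-L1 also moved in both directions. Of the 21 genes of that list, all tested, 8 were higher, 10 lower and 3 did not pass, or 11, 6 and 4 with median-of-ratios scaling, and the median was 0.07 above that of all tested genes. IRF1, the interferon regulatory factor that switches on the CD274 promoter after interferon gamma, fell from 80.4 ± 3.03 to 27.5 ± 0.956 TPM (log2 difference -1.52, adjusted p = 1.61e-09). The receptor chain IFNGR2 had the largest rise, from 65.2 ± 6.12 to 233.8 ± 10.6 TPM (log2 difference 1.83, adjusted p = 4.08e-09), and its kinase JAK2 rose from 2.26 ± 0.297 to 7.02 ± 0.168 TPM. EZH2, a histone methyltransferase, had the largest fall of the list, from 86.9 ± 3.3 to 13.8 ± 0.639 TPM, and HIF1A, its most abundant gene, fell from 371 ± 12.1 to 177 ± 5.68 TPM. CMTM6, a membrane protein that keeps PD-L1 from being degraded, was at 46.1 ± 1.81 and 38.1 ± 3.12 TPM (adjusted p = 0.00305, but 0.182 with median-of-ratios scaling). B3GNT3, a glycosyltransferase that modifies PD-L1, rose from 20.2 ± 0.925 to 54.6 ± 2.43 TPM.

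CD276 (Entrez Gene 80381), which encodes the checkpoint molecule B7-H3, was at 73.75, 69.18 and 69.5 TPM in parental and at 32.97, 33.09 and 35.08 TPM in sphere libraries. The groups lay well apart, with little spread within each. The mean fell by 52.4%, from 70.8 ± 2.55 to 33.7 ± 1.19 TPM (log2 difference -1.05, SE 0.0472, adjusted p = 1.8e-08). It was nonetheless well above CD274 in each of the 6 libraries.

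Of 15 other genes of the B7 and butyrophilin families 10 were tested, 4 higher and 6 lower, with a median 0.52 below that of all tested genes. NCR3LG1, 1 of the 4 higher (adjusted p = 0.0292), passed in only 7 of 11 alternative settings. VTCN1, the checkpoint ligand B7-H4, had the largest rise, from 0.22 ± 0.0721 to 3.76 ± 0.2 TPM (log2 difference 1.96, adjusted p = 5.78e-08). VSIR, the checkpoint molecule VISTA, rose from 8.45 ± 0.298 to 13.4 ± 0.42 TPM. The largest fall on the log2(TPM + 1) scale was in BTN3A2, also the most abundant gene of the list, from 35.7 ± 1.71 to 12.1 ± 0.862 TPM (log2 difference -1.49, adjusted p = 1.48e-08). As a ratio of mean TPM, the fall of ICOSLG, which encodes the ICOS ligand, was about the same, at 2.99-fold against 2.96-fold for BTN3A2. ICOSLG was low, going from 2.47 ± 0.505 to 0.827 ± 0.085 TPM. The BTN3A2 relatives BTN3A1 and BTN3A3, which with it belong to the butyrophilins that gamma delta T cells sense, fell to 8.94 ± 0.332 and 4.43 ± 0.298 TPM from 16.8 ± 1.78 and 12.9 ± 1.87 TPM. How reads were divided between these related genes is uncertain. CD86, a ligand of CD28 and CTLA-4, was below the filter at 0.203 ± 0.157 and 0.21 ± 0.0624 TPM.

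**Figure D3:**
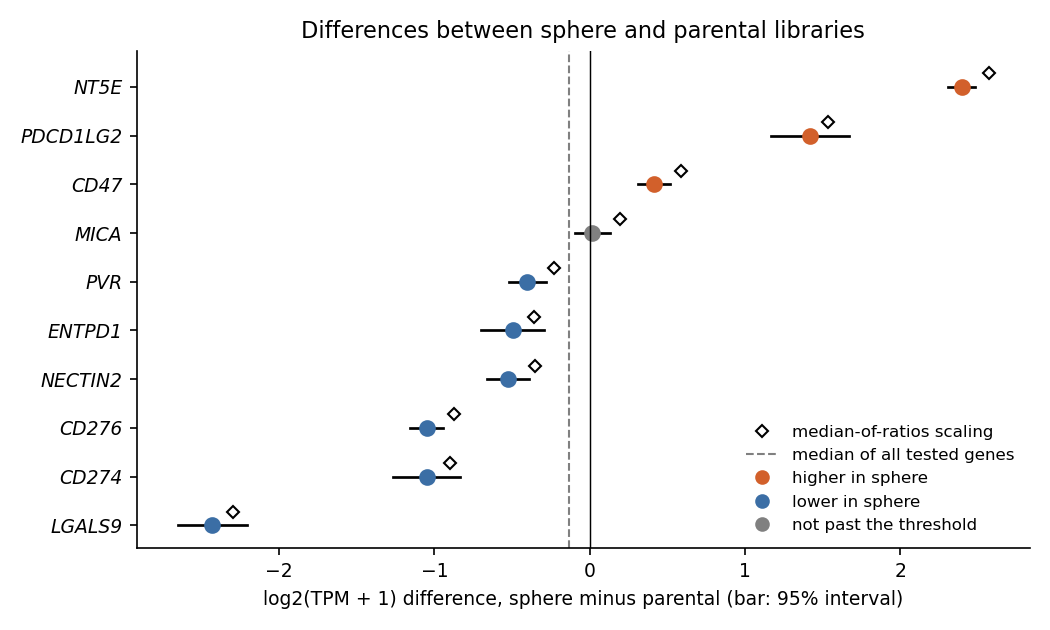
Log2(TPM + 1) difference, sphere minus parental, of each of the 10 genes with its 95% interval from limma, beside the value with median-of-ratios scaling (diamonds) and the median of all tested genes (dashed). NT5E at 2.40 and LGALS9 at -2.43 mark the ends, and MICA, at 0.02, is the 1 gene whose interval includes 0.

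The TIGIT and CD226 ligands PVR and NECTIN2 fell together by modest amounts. PVR (Entrez Gene 5817), the poliovirus receptor, was at 44.49, 41.48 and 39.98 TPM in parental and at 30.94, 32.53 and 31.1 TPM in sphere libraries. NECTIN2 (Entrez Gene 5819), an adhesion molecule of cell junctions, was at 81.99, 80.93 and 73.67 TPM in parental and at 58.53, 51.98 and 52.66 TPM in sphere libraries. The parental libraries were higher without exception for both genes. PVR fell by 24.9% (log2 difference -0.40, SE 0.0528, adjusted p = 5.41e-05) and NECTIN2 fell by 31.0% (log2 difference -0.53, SE 0.0598, adjusted p = 1.78e-05). The ratio of PVR to NECTIN2 was 0.513 to 0.543 in parental and 0.529 to 0.626 in sphere libraries, with overlapping ranges.

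The most abundant related nectin went the other way. Of 7 other nectins and nectin-like molecules 4 were tested, 2 higher and 2 lower, or 2 higher and 1 lower with median-of-ratios scaling. NECTIN4, a tumour-associated nectin that also binds TIGIT, rose from 3.53 ± 0.619 to 84.3 ± 0.928 TPM (log2 difference 4.24, adjusted p = 1.15e-10) and so passed NECTIN2 in sphere libraries. NECTIN1, an adhesion molecule and the most abundant of the list, rose from 23.2 ± 1.66 to 90.5 ± 0.452 TPM, and CADM4 had the largest fall, from 12.7 ± 1.55 to 7.89 ± 0.915 TPM.

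CD47 (Entrez Gene 961) was at 72.25, 71.14 and 66.79 TPM in parental and at 89.87, 94.71 and 96.29 TPM in sphere libraries. Each sphere library was higher than each parental library. The rise was by 33.6%, from 70.1 ± 2.89 to 93.6 ± 3.35 TPM (log2 difference 0.41, SE 0.0463, adjusted p = 1.65e-05).

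Among 11 other genes of phagocytosis signalling 10 were tested, 2 higher, 6 lower and 2 not past the threshold, or 3 higher and 4 lower with median-of-ratios scaling, and their median was 0.15 below that of all tested genes. CD24, like CD47 a signal that restrains macrophages, had the largest rise, from 6.73 ± 0.621 to 272 ± 15.1 TPM (log2 difference 5.15, adjusted p = 6.57e-12). CD24 has close copies in the genome, so its share of reads is uncertain. CALR, which promotes uptake of a cell when its protein calreticulin reaches the surface, had the largest fall and was the most abundant, going from 1761 ± 58.9 to 381 ± 14.6 TPM (log2 difference -2.21, adjusted p = 5.75e-11). THBS1, a matrix protein that binds CD47, rose from 97.4 ± 5.29 to 260.9 ± 2.02 TPM. QPCTL, the enzyme that modifies CD47 for binding to SIRP alpha, was at 13.9 ± 1.02 and 14.7 ± 1.33 TPM with overlapping groups (adjusted p = 0.384).

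LGALS9 had the largest fall of the 10 genes. LGALS9 (Entrez Gene 3965), which encodes galectin-9, a secreted lectin that binds TIM-3 on T cells, was at 12.62, 11.48 and 11.43 TPM in parental and at 1.34, 1.67 and 1.15 TPM in sphere libraries. The lowest parental library stood several times above the highest sphere library. The means of 11.8 ± 0.673 and 1.39 ± 0.263 TPM gave an 8.54-fold fall (log2 difference -2.43, SE 0.0986, adjusted p = 8.71e-09). Other genes, mainly LGALS9C, AC015688.4, LGALS9DP and LGALS9B, hold 20.1% of the 50-base windows of LGALS9 coding transcripts, so its share of reads is uncertain. In the same table LGALS9B was below the filter, at 1.67 ± 0.514 and 0.257 ± 0.238 TPM, and LGALS9C was at 1.61 ± 0.465 and 1.53 ± 0.211 TPM with overlapping groups (adjusted p = 0.822).

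Among other galectins that were tested, more were higher than lower in sphere libraries. Of 11 listed 5 were tested, 3 higher, 1 lower and 1 not past the threshold, with a median 0.70 above that of all tested genes. LGALS3, an abundant epithelial galectin, had the highest level and, on the log2(TPM + 1) scale, the largest rise, going from 101 ± 9.69 to 563 ± 10.9 TPM (log2 difference 2.47, adjusted p = 3.44e-10). LGALS7, a keratinocyte galectin, was higher by 1.65 on that scale but low, at 0.233 ± 0.404 and 3.05 ± 1.83 TPM, and its ratio in TPM was the larger. LGALS1 rose from 217 ± 12.5 to 322 ± 19.3 TPM. LGALS8 was the 1 lower gene, at 34.6 ± 0.709 and 29.1 ± 2.19 TPM (adjusted p = 0.00384, but 0.322 with median-of-ratios scaling).

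MICA was the 1 gene that did not pass. MICA (Entrez Gene 100507436), a stress-induced relative of MHC class I molecules, was at 73.4, 78.96 and 70.28 TPM in parental and at 78.03, 73.53 and 73.73 TPM in sphere libraries. All 3 sphere values fell within the parental range. The means of 74.2 ± 4.4 and 75.1 ± 2.54 TPM differed by 0.02 on the log2 scale (95% interval -0.10 to 0.13, adjusted p = 0.753). With median-of-ratios scaling it was higher in sphere libraries, with a log2 difference of 0.19 and an adjusted p of 0.00439.

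Its neighbours on chromosome 6 were lower, and its family was divided. MICB, the gene next to MICA and its closest relative, fell from 41.1 ± 1.69 to 18.8 ± 1.15 TPM (log2 difference -1.09, adjusted p = 6.91e-08). On the other side, the MHC class I gene HLA-B fell from 1622 ± 35.1 to 738 ± 28.4 TPM and HLA-C from 1076 ± 40.8 to 686 ± 26.5 TPM, and DDX39B, an RNA helicase gene beyond MICB, fell from 404 ± 6.5 to 136 ± 3.11 TPM. Windows shared with other genes, chiefly MICB, made up 2.43% of MICA coding transcripts. Of 7 other NKG2D ligands, all tested, 3 were higher and 4 lower, with a median 0.43 below that of all tested genes. RAET1L, 1 of the 3 higher (adjusted p = 0.0346), passed in only 6 of 11 alternative settings. ULBP2, the most abundant, fell from 55.8 ± 4.57 to 37.3 ± 1.32 TPM, and ULBP1 and ULBP3 fell as well. RAET1G had the largest rise, from 3.52 ± 0.993 to 8.75 ± 0.655 TPM (log2 difference 1.13, adjusted p = 6.29e-05), and RAET1E rose from 1.71 ± 0.454 to 4.05 ± 0.538 TPM.

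Proteases and other partners of these surface proteins were followed in further lists. Of 7 genes linked to shedding of surface ligands 4 were higher and 3 lower, or 4 and 2 with median-of-ratios scaling. MMP14, a membrane protease, had the largest rise on the log2(TPM + 1) scale, from 51.9 ± 0.228 to 178 ± 6.76 TPM, and MMP13, a collagenase, the largest fall, from 8.42 ± 0.679 to 0.647 ± 0.1 TPM. As a ratio of mean TPM, the gelatinase gene MMP9 rose more, by 5.99-fold from 0.313 ± 0.277 TPM, against 3.42-fold for MMP14. PDIA6, a disulfide isomerase that takes part in MICA shedding and the most abundant of the list, fell from 505 ± 8.2 to 264 ± 8.19 TPM. Of 6 tested surface partners 3 were higher and 2 lower, led by CD44, the hyaluronan receptor (537 ± 13.7 to 2086 ± 32.6 TPM), and by SLC3A2, a subunit of amino acid transporters (514 ± 23.3 to 282 ± 3.74 TPM).

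The list of 22 other inhibitory ligands and enzymes also held the stimulatory ligands CD70 and TNFSF9. Of these 22 genes 12 were tested, 8 higher and 2 lower, or 10 and 2 with median-of-ratios scaling. Among all tested genes, 35.1% were higher and 48.2% lower. The median of the tested genes was 0.75 above that of all tested genes in the series. VEGFA, the angiogenic growth factor, had the largest rise on the log2(TPM + 1) scale, from 121 ± 5.24 to 344 ± 18.1 TPM. As a ratio of mean TPM, TNFRSF14, which encodes the BTLA ligand HVEM, rose slightly more, by 2.99-fold against 2.85-fold. CD70, the ligand of CD27, had the largest fall, from 40.3 ± 4.4 to 0.957 ± 0.503 TPM (log2 difference -4.43, adjusted p = 6.85e-09), and TNFSF9, the ligand of 4-1BB, fell from 41.1 ± 3.4 to 11.3 ± 1.9 TPM. CD70 and TNFSF9 were the 2 lower genes of the list, and CD27 and 4-1BB are stimulatory receptors. HLA-E, the ligand of the inhibitory receptor NKG2A, rose from 192 ± 3.52 to 271 ± 4.32 TPM. Of 13 receptors that immune cells use for these ligands 11 were listed and 1 was tested, PVRIG, at 18.1 ± 1.14 TPM in parental libraries and 12.7 ± 0.803 TPM in sphere libraries (log2 difference -0.48, adjusted p = 0.000102). PDCD1, which encodes PD-1, was listed at 0.09, 0.34 and 0 TPM in parental replicates 1 to 3 and at 0 in each sphere library. TIGIT was at no more than 0.04 TPM in any library. Over the 11 lists, 88 of 97 tested genes passed (90.7%), 45 higher and 43 lower, against 83.4% of all tested genes.

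**Figure D4:**
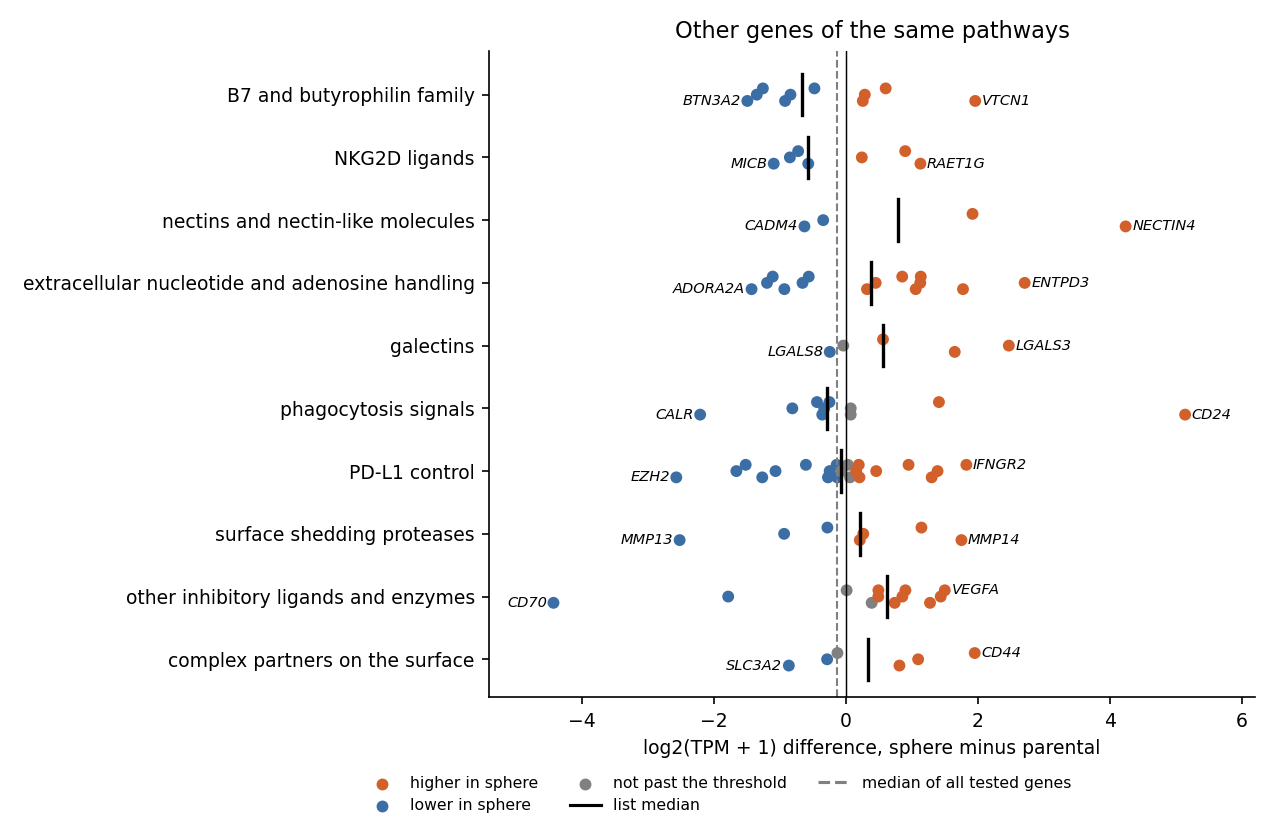
Log2(TPM + 1) difference, sphere minus parental, of each tested gene (point) in 10 lists of genes related to the immune ligands, with the list median (line), the median of all tested genes (dashed) and the names of the lowest and highest gene of each list. Each list with more than 1 tested gene is drawn, and every one holds genes that passed in both directions (with median-of-ratios scaling, no galectin passed as lower).

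The genes most like NT5E and LGALS9 in pattern were found by the distance between log2(TPM + 1) profiles over the 6 libraries, each centred on its own mean. For NT5E these were ODC1 (ornithine decarboxylase, 175 ± 1.65 to 928 ± 13.7 TPM), FRMD4B and TGFB1I1, at distances of 0.0921, 0.117 and 0.117. For LGALS9 they were CBX2, a Polycomb protein (8.96 ± 0.404 to 0.703 ± 0.14 TPM), DLG4 and ANKRD33B, at distances of 0.179, 0.193 and 0.202. In a design of 2 groups this likeness rests almost wholly on the size of the 1 difference between them.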

How the data were processed

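Total RNA of 6 libraries was extracted with Trizol and sequenced on a BGISEQ-500 in single-end reads of 50 bases, per the labels' protocols. The authors deposited 1 table of TPM per gene, per the file headers. HISAT, Bowtie2 and the mouse build GRCm38.p6 are named in the submitters' processing notes, although 17052 of 17110 Entrez Gene IDs were found among human RefSeq genes. The build behind the values is thus unclear, and no source used here gives the counting tool or annotation. Columns named Control were taken as parental, the other of 2 groups.

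Genes with a mean of at least 1 TPM over the 6 libraries were tested with limma 3.58.1 in R 4.3.3 (mean-variance trend, 4 residual degrees of freedom). The fit was two-sided and was also tested on simulated data. A gene below 1 TPM in 1 group could thus be tested through the other. PDCD1LG2, VTCN1, P2RY11, LGALS7 and MMP9 passed the filter through the sphere libraries, and ICOSLG, ENPP1 and MMP13, for example, through the parental ones. Windows of 50 bases came from GENCODE 29 coding transcripts. As alternatives, the pseudocount was set to 0.1 TPM, the filter was dropped or raised to 5 TPM, values were rescaled by median of ratios, the prior was made robust, replicate number was added as a block, and each library was left out. The 10 genes, the lists and the rule for named genes were chosen with earlier results of these data known. The rule takes the 10 genes, each list's largest rise and fall and its most abundant gene, the 3 nearest patterns to the largest rise and fall, and 2 neighbours on each side of CD274, PDCD1LG2 and MICA. Other genes and the ratios were chosen after their values were seen.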

Additional observations from a re-analysis of the deposited data

How the results depend on the processing

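The count of the 10 genes past the threshold was 9 as reported, 7 of 8 with a mean of at least 5 TPM (which removes PDCD1LG2 and ENTPD1), 10 with median-of-ratios scaling, where MICA passed, and 9 in every other setting. The 9 genes that passed kept their direction and their call in every alternative that tested them, with PDCD1LG2 ranging from 1.36 to 2.07 and LGALS9 from -3.02 to -2.30 on the log2 scale. For MICA, at 0.02, leaving out single libraries gave -0.020 to 0.063, with values below 0 without parental replicate 3 (-0.020) and without sphere replicate 1 (-0.0096), and 0.19 resulted from median-of-ratios scaling. Between 8485 and 11503 genes passed, depending on the setting. Of the 88 listed genes that passed, 77 passed in the same direction in every alternative. With the replicate block 10192 genes, 9 of the 10 and 88 listed genes passed. Deviations of libraries with the same number correlated at -0.055 to 0.018, and 1 of 6 libraries correlated best with its own number, so the numbers give no sign of pairing. Within-library ratios and sums kept their direction with each library left out, but the sums were not recomputed with median-of-ratios scaling. Depth is unknown, so the precision of low genes such as PDCD1LG2 rests on 3 libraries a group.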
